A study of Mus musculus with 12 samples.

Results

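A group of 8 mouse genes of chromosome 17 that encode zinc finger proteins, Zfp40, Zfp51, Zfp52, Zfp53, Zfp54, Zfp942, Zfp944 and Zfp945, were followed across regulatory T cells (Tregs) that lack or keep Ebi3, a gene of the same chromosome. Every probe set annotated to one of them was taken, which gave 21 probe sets of 1 member gene and 1 shared by Zfp944 and Zfp942, out of 45101 on the array. The genes were picked because several read low on arrays without Ebi3, so their differences by Ebi3 genotype are described here and carry no test. Of the 21 probe sets, 18 passed the filter on low signals and 3 did not, and 4 of the 18 passed only through arrays that keep Ebi3. These were Zfp945 1437128_a_at, Zfp52 1426472_at, Zfp942 1454402_at and Zfp54 1454583_at, which reached the filter on only 1 or 2 arrays without Ebi3.

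RNA of freshly isolated, untreated Tregs, sorted by flow cytometry, was measured on 12 Affymetrix arrays. The 4 genotypes, with 3 arrays each, were the Ebi3 knockout (Ebi3-/-, here Ebi3_KO), the double knockout of Ebi3 and Il10 (DKO), wild type (WT) and the Il10 knockout (Il10-/-, here Il10_KO). The product of Ebi3 is a chain of the heterodimers IL-27 and IL-35, while that of Il10 is IL-10, all of them cytokines of immune cells. Replicate number equals the labelled batch, so each of the 3 batches holds 1 array of each genotype, and an Ebi3_KO array can be set against WT and a DKO array against Il10_KO within its batch. The labels give the cells as natural Tregs but no strain, allele, targeting strategy, age or sex, nor whether arrays of a genotype come from separate mice, so p-values measure only the spread between these arrays. In bulk RNA, fewer cells of a type and less RNA per cell cannot be told apart.

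Zinc finger proteins of the C2H2 type bind DNA through rows of fingers, each of which contacts a few bases. Many of those encoded in this stretch of the mouse genome belong to the KRAB family, in which the KRAB box recruits the corepressor TRIM28 (KAP1), and TRIM28 in turn brings the histone methyltransferase SETDB1 and HP1 proteins. The family is best known for silencing transposable elements, and its genes lie in clusters of near copies, so that probes for one member can also detect another.

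Of the targeted genes, Ebi3 checked the labels. It read 3, 29.4 and 39.5 in Ebi3_KO and 15.2, 72.5 and 23.6 in DKO (MAS5 signal, the linear brightness that the Affymetrix software assigns to a probe set, in batches 1 to 3), against 1159, 1727.8 and 1725.9 in WT and 1062.5, 2057.3 and 1899.6 in Il10_KO. All 6 arrays labelled as lacking Ebi3 were therefore low for it, and its average log2 difference was -5.10 ± 0.32 (SE, limma adjusted p = 3.6e-05). Il10 did not check them. Its probe set averaged 1969.0 ± 847 in DKO against 1453.4 ± 906 in Ebi3_KO, and 1680.7 ± 566 in Il10_KO against 1202.7 ± 1510 in WT (SD, n = 3 each), so it read higher, not lower, where Il10 is labelled as lacking. The average difference was 0.91 ± 0.57 (SE, limma adjusted p = 0.99988; adjusted p = 0.54164 with batch in the model). The labels do not give the part of Il10 removed, so the comparisons by Il10 genotype below rest on the labels alone. Treg and T cell markers were high on all 12 arrays (Foxp3 4945.3 to 7955, Ctla4 9630.1 to 25039.3). The summed signal of the 5 myeloid and neutrophil markers was 1848.9 to 13536.4 in Ebi3_KO and 3170.4 to 30213.4 in DKO, against 3872.8 to 23477.1 in WT and 1906.6 to 28729.3 in Il10_KO, highest in batch 3 within every genotype. For the 2 measured B cell markers the sum was 447.9 to 2153.1 in Ebi3_KO and 299.6 to 1977.2 in DKO, against 864.5 to 3258.1 in WT and 395.7 to 4077.9 in Il10_KO. The 4 CD8 and NK markers summed to 708.8 to 1566.2 in Ebi3_KO and 874.3 to 2603.8 in DKO, against 600.7 to 2013.2 in WT and 700.4 to 2586.1 in Il10_KO. The 2 erythroid markers summed to 19.3 to 104.2 in Ebi3_KO and 91.6 to 215.2 in DKO, against 89.9 to 213.9 in WT and 89.7 to 275.3 in Il10_KO. Of these markers Itgam and Hba-a1 did not pass the filter. The ranges over batches overlapped between the genotypes. Within every batch, however, the myeloid and neutrophil sum was lower in Ebi3_KO than in WT (1878.5 against 5114.3, 1848.9 against 3872.8 and 13536.4 against 23477.1), as was the erythroid sum, while DKO against Il10_KO was lower in some batches and higher in others for both. In every batch the B cell sum was lower in DKO than in Il10_KO (1749.6 against 2391.7, 299.6 against 395.7 and 1977.2 against 4077.9). The CD8 and NK sum was higher in DKO than in Il10_KO in every batch (874.3 against 790.9, 959.3 against 700.4 and 2603.8 against 2586.1). Both sums went both ways in Ebi3_KO against WT. The part of these cells in the values below was not tested.

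One array stood apart on some probe sets. Ebi3_KO replicate 3 read 39.5 for Ebi3 but was as high as WT for several members, most clearly Zfp52 (3122.7 on 1426471_at) and Zfp944 (484.8 on 1437911_at). On others it did not: it read 11.1 on Zfp40 1440695_at. Ebi3_KO replicate 1 was the highest array without Ebi3 on Zfp945 1437128_a_at (373.5) and Zfp942 1454402_at (124). For the counts of members and for the members whose values Ebi3_KO replicate 3 moved most, the value without it is also given. The cause was not tested.

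In the reference order of genes (RefSeq, GRCm38.p6) the members lie on one side of Ebi3, far from it. Zfp54, Zfp51, Zfp53 and Zfp52 are consecutive, at 676, 675, 674 and 673 protein-coding genes from Ebi3. Zfp942 follows at 665, Zfp944 at 660, Zfp945 at 654 and Zfp40 at 651. From Zfp54 to Zfp40 there are 26 protein-coding genes, and 11 of the 18 that are not members are also named Zfp. The Zfp genes next to Ebi3, such as Zfp119b, are not members.

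Sequence upstream of the start was held in the promoter table for 6 members (RefSeq, GRCm38.p6), and 4 windows of 250 bases are shown. Zfp942 and Zfp944 are shown because their starts are nearly identical although their probe sets disagree. Zfp945 and Zfp52 are shown because they hold the lowest values of the set. Capitals mark CCGGAA, the core of ETS factor sites, or its reverse complement TTCCGG. The windows lie at chr17:21962465-21962714 (minus strand) for Zfp942, chr17:22361401-22361650 (minus strand) for Zfp944, chr17:22867135-22867384 (minus strand) for Zfp945 and chr17:21535289-21535538 (plus strand) for Zfp52.
Zfp942: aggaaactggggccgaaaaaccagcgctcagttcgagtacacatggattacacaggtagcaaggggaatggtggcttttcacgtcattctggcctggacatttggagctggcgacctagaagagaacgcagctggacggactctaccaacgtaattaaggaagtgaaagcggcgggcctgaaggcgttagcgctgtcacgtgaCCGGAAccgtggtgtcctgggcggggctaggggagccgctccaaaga
Zfp944: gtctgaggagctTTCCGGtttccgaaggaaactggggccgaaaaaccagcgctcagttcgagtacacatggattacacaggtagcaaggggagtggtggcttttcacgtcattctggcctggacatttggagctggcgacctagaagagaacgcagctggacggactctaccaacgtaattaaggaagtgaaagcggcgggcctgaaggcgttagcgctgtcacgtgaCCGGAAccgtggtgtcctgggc
Zfp945: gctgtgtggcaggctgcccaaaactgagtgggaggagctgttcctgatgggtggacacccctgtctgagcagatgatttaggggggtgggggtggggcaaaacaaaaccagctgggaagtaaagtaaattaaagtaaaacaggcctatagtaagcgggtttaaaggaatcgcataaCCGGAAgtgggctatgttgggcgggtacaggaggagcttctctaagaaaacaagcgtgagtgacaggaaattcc
Zfp52: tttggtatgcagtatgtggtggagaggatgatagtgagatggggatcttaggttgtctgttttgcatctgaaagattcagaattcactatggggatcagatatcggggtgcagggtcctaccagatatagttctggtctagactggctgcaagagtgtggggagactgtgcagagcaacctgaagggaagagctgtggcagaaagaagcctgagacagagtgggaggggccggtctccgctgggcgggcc

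The Zfp942 and Zfp944 windows matched at 224 of 225 aligned bases (99.6%), with the same stretch shifted by 25 bases and a longest identical run of 157 bases. Those of Zfp52, Zfp53 and Zfp54 were 72.7% to 76.0% identical in pairs. CCGGAA was found on either strand in 5 of the 6 member windows (83.3%), Zfp52 being the exception, against 12.2% of 27025 windows of the same length. GGGCGG, the GC box, was in 4 of 6 (66.7%) against 32.9%, the E-box CACGTG in 2 of 6 (33.3%) against 6.05%, and CCAAT in 1 of 6 (16.7%) against 34.5%. The motifs were picked after the sequences had been seen, and related windows are not independent, so these shares only describe the windows.

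Across the 21 probe sets, most values by Ebi3 genotype were small and a few were very large. The mean of the 6 within-batch differences (Ebi3_KO minus WT and DKO minus Il10_KO, on the scale of log2(signal + 20)) was below 0 in 14 and above 0 in 7. Over all tested probe sets it was below 0 in 16221 of 31235. It was at or under -1, a difference used here only to sort, in 6 probe sets of 5 genes, Zfp945, Zfp52, Zfp942, Zfp40 and Zfp944, against 0.138% of all tested probe sets. It was at or over 1 in 1, also of Zfp945. The nearest value inside that mark was -1.13 (Zfp944) and the nearest outside it was -0.78 (Zfp40). All 6 pairs were lower in 5 probe sets (2.26% of all tested) and higher in 2 (1.51%). All 6 arrays without Ebi3 lay below all 6 with it in 1 (0.0544%) and above them in 0 (0.048%). Since the members were picked on this contrast, nothing is read from these shares. Each SE below comes from the model without batch, so it leaves out the pairing, unless batch is named.

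**Figure D1:**
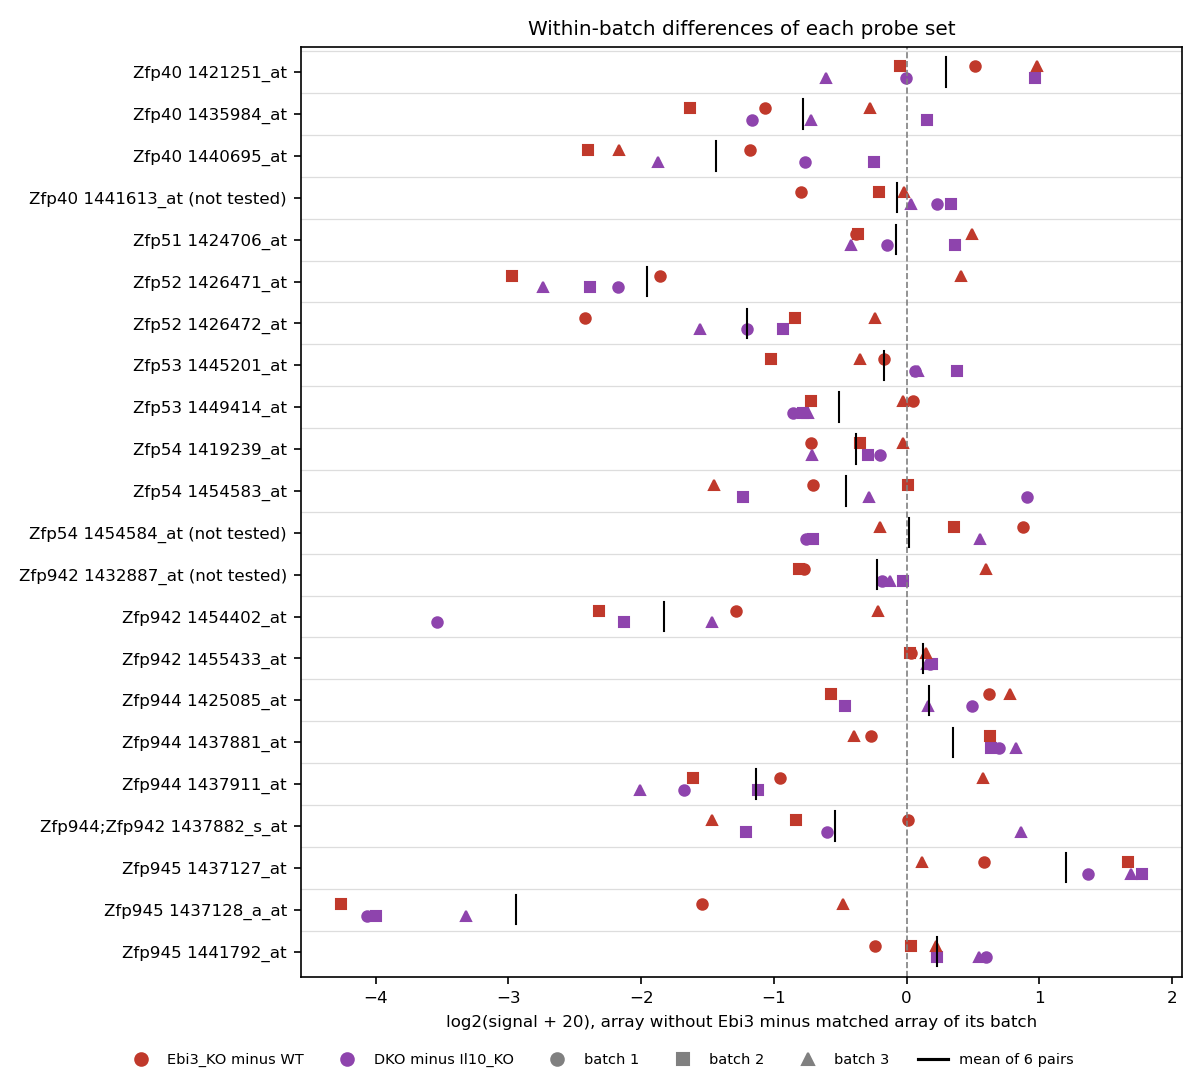
Log2 differences within each batch for the 22 probe sets, with 3 points for Ebi3_KO minus WT and 3 for DKO minus Il10_KO per probe set (x axis, log2(signal + 20)) and a black bar at their mean. Zfp945 1437128_a_at lies farthest to the left with a mean of -2.94, while Zfp945 1437127_at is the one with a mean over 1, at 1.20.

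Zfp945 held both the lowest and the highest value. Its probe set 1437128_a_at, of a class designed to detect several transcripts of a gene, read 373.5, 5.9 and 336.9 in Ebi3_KO and 20.3, 12.1 and 20.9 in DKO, against 1124.3, 475.4 and 477.8 in WT and 655.8, 493.6 and 387.9 in Il10_KO. The 2 sets of arrays did not overlap, and DKO was uniformly low while 2 of the 3 Ebi3_KO arrays were only somewhat below the lowest array with Ebi3. Ebi3_KO minus WT gave -1.54, -4.26 and -0.48 in the 3 batches, and DKO minus Il10_KO gave -4.07, -4.00 and -3.32. The average was -2.94 ± 0.57 (SE). It was -3.25 without Ebi3_KO replicate 3, -3.28 without Ebi3_KO replicate 1 and -2.30 without Ebi3_KO replicate 2.

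The probe set 1437127_at of Zfp945 went the other way. It read 536.4, 244.8 and 137.1 in Ebi3_KO and 566.6, 522.6 and 173.6 in DKO, against 351.1, 63.5 and 124.6 in WT and 207.5, 138.6 and 40 in Il10_KO. Every matched pair was higher without Ebi3, by 0.58, 1.67 and 0.12 in Ebi3_KO minus WT and by 1.37, 1.77 and 1.69 in DKO minus Il10_KO, although the arrays of different batches overlapped. With the mean of each batch removed, the correlation of the 2 probe sets over the 12 arrays was -0.71. The third probe set, 1441792_at, read 97.2 to 107.8 in DKO and 56.4 to 69.3 in Ebi3_KO, against 51 to 70 in WT and 57.2 to 85.4 in Il10_KO, so that only the DKO arrays stood above the rest. No single direction can therefore be given for the gene, and which transcripts each probe set detects was not tested.

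**Figure D2:**
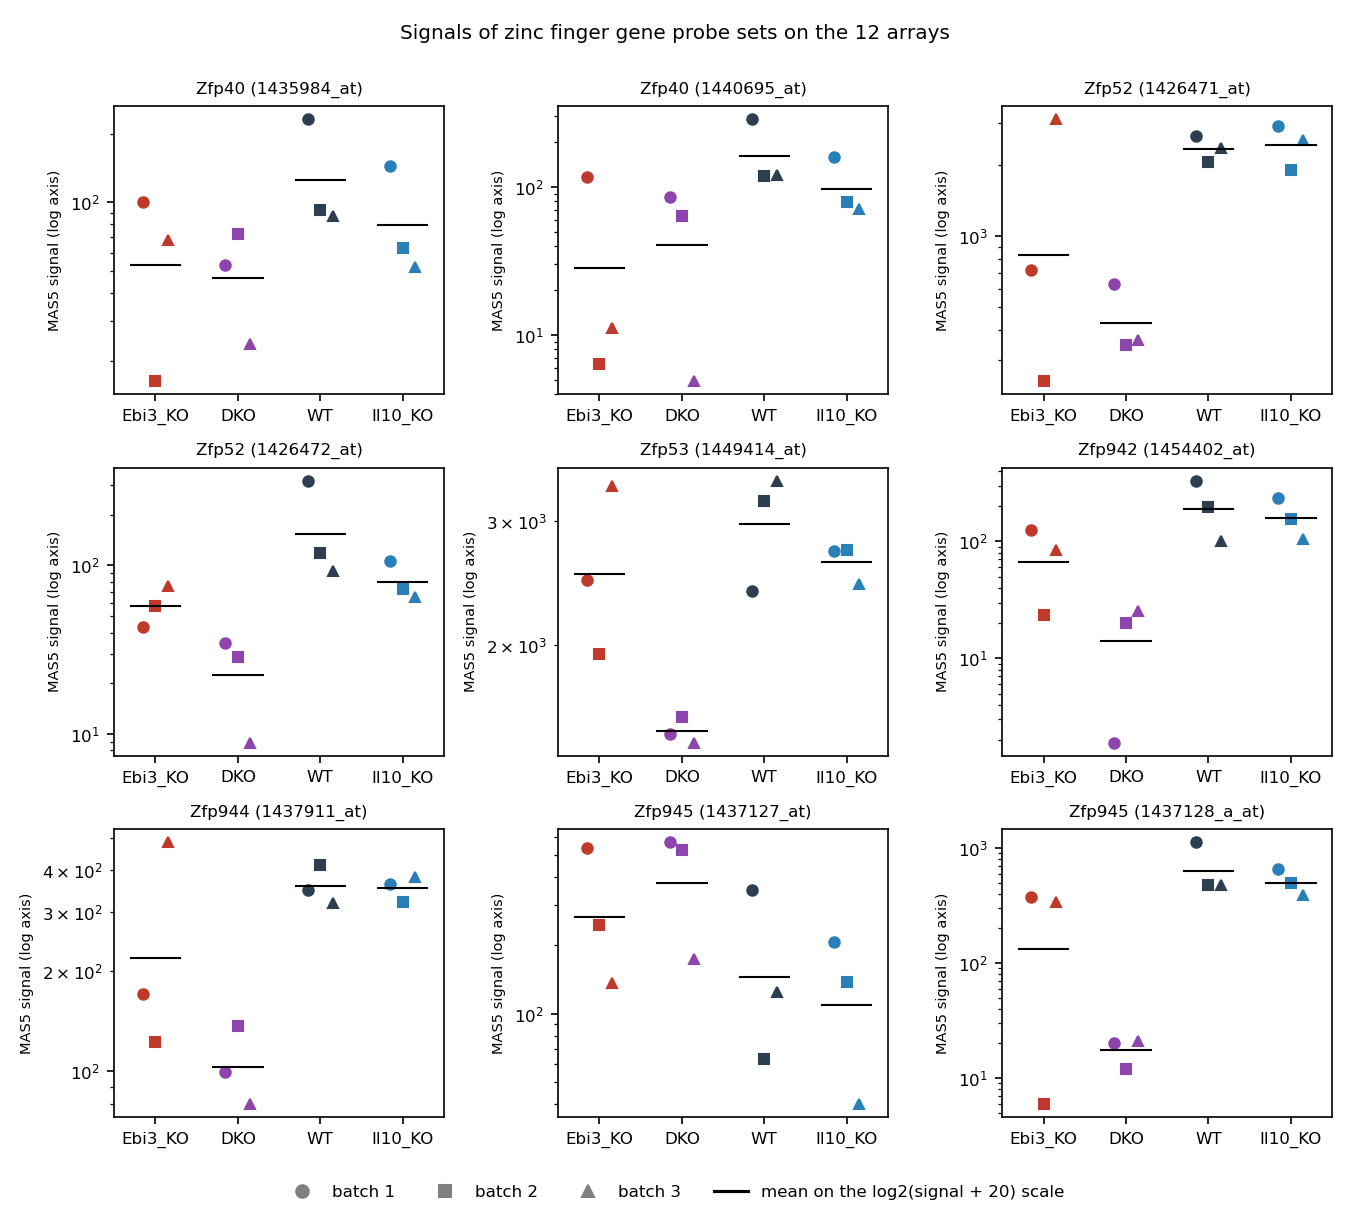
MAS5 signal (log axis) on each array for the 9 probe sets of 1 member gene whose average log2 difference by Ebi3 genotype was 0.5 or more in size, with genotypes from left to right Ebi3_KO, DKO, WT and Il10_KO, 1 point per array and a line at the mean on the scale of log2(signal + 20). Ebi3_KO replicate 3 sits with the WT arrays for Zfp52 1426471_at (3122.7) and Zfp944 1437911_at (484.8), where the DKO arrays are low.

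For Zfp52 both probe sets were low, with 1 array as an exception. Probe set 1426471_at read 716.2, 244.6 and 3122.7 in Ebi3_KO and 628.7, 347.1 and 363.3 in DKO, against 2653.8, 2057.5 and 2348.5 in WT and 2908.4, 1898 and 2544.1 in Il10_KO. In all, 5 of the 6 arrays without Ebi3 were below every array with it, and Ebi3_KO replicate 3 was above them all. Within batches the differences were -1.86, -2.97 and 0.41 in Ebi3_KO minus WT and -2.17, -2.39 and -2.74 in DKO minus Il10_KO. The average of -1.95 ± 0.45 (SE) became -2.43 without that array.

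The other Zfp52 probe set, 1426472_at, read 43, 57.3 and 75.6 in Ebi3_KO and 34.6, 28.7 and 8.9 in DKO, against 317.9, 118.5 and 92.6 in WT and 105.8, 72.9 and 64.9 in Il10_KO. All 6 pairs were lower, from -2.42 to -0.24, with an average of -1.20 ± 0.31 (SE). Here Ebi3_KO replicate 3 was the highest array without Ebi3, above 2 Il10_KO arrays and below all WT arrays. The 2 probe sets correlated at 0.81 over the 12 arrays after batch means were removed.

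Zfp942 split in the same gene. Its probe set 1454402_at read 124, 23.5 and 83.9 in Ebi3_KO and 1.9, 20.2 and 25.3 in DKO, against 330.9, 196.6 and 100.4 in WT and 234.4, 156 and 104.9 in Il10_KO. Only the first Ebi3_KO array overlapped the arrays with Ebi3. The pairs were -1.28, -2.32 and -0.21 in Ebi3_KO minus WT and -3.54, -2.13 and -1.46 in DKO minus Il10_KO (average -1.82 ± 0.37, SE). Its probe set 1455433_at was nearly level between genotypes, at 516.4 to 640.4 in Ebi3_KO and 494 to 615.1 in DKO, against 504.1 to 629.8 in WT and 429 to 550 in Il10_KO. All 6 of its pairs were above 0, by 0.02 to 0.20, far less than the spread between arrays. The third probe set of Zfp942 read between 1.6 and 23.1 on the 12 arrays and did not pass the filter.

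Zfp944 showed the pattern of Zfp52 on 1 of 3 probe sets. On 1437911_at the signal was 170.7, 122.1 and 484.8 in Ebi3_KO and 99.7, 137 and 79.7 in DKO, against 348.8, 413.9 and 318.8 in WT and 362.6, 321.2 and 380.5 in Il10_KO. Again 5 arrays without Ebi3 were below all 6 with it and Ebi3_KO replicate 3 was above them all. The average was -1.13 ± 0.28 (SE), and -1.40 without that array. Its probe sets 1425085_at and 1437881_at averaged 0.17 and 0.35, with overlapping arrays. The probe set shared by Zfp944 and Zfp942 averaged -0.54 (-0.30 without Ebi3_KO replicate 3) and ranged within Ebi3_KO alone between 5.1 and 83.1, and its signal cannot be divided between these near copies.

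Zfp40 had 2 probe sets that ran together. On 1440695_at the signal was 116.2, 6.4 and 11.1 in Ebi3_KO and 85.6, 63.9 and 4.9 in DKO, against 288, 119.1 and 119.7 in WT and 159.2, 79.7 and 71 in Il10_KO. All 6 pairs were lower, from -2.40 to -0.25, and each array without Ebi3 was below both arrays of its batch that keep it, but batch 1 was high throughout, so the 2 sets of arrays overlapped across batches. The average was -1.44 ± 0.48 (SE, or 0.28 with batch in the model). On 1435984_at 5 of the 6 pairs were lower (average -0.78 ± 0.37, SE), with DKO minus Il10_KO of batch 2 at 0.16, and the 2 probe sets correlated at 0.82. Its probe set 1421251_at averaged 0.30 with pairs on both sides of 0, and the fourth read 0.6 to 18.1 and did not pass the filter.

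The 3 members beside Zfp52 had smaller values. Zfp53 on 1449414_at read 2468.8, 1938.9 and 3355.4 in Ebi3_KO and 1491.8, 1578.9 and 1451.8 in DKO, against 2385.5, 3201.9 and 3419.5 in WT and 2716.2, 2724.4 and 2436.3 in Il10_KO. Every DKO array was below every other array, whereas the Ebi3_KO arrays overlapped WT. The pairs were 0.05, -0.72 and -0.03 in Ebi3_KO minus WT and -0.86, -0.78 and -0.74 in DKO minus Il10_KO. The average was -0.51 ± 0.16 (SE), and -0.61 without Ebi3_KO replicate 3. The other probe set of Zfp53, 1445201_at, averaged -0.17, and -0.04 without that array.

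Zfp54 on 1419239_at was lower in all 6 pairs by modest amounts, from -0.72 to -0.03, with an average of -0.38 ± 0.26 (SE), which was -0.54 without Ebi3_KO replicate 3. The arrays read 207.8, 130.6 and 338.8 in Ebi3_KO and 222.8, 182.2 and 148.1 in DKO, against 355.2, 171.7 and 346.1 in WT and 259.3, 227.6 and 256.1 in Il10_KO, and they overlapped. Its 2 dim probe sets read at most 57 and 66.2. Zfp51, which lies between Zfp54 and Zfp53, averaged -0.08 ± 0.19 (SE) on its 1 probe set, with 4 pairs below and 2 above 0. Its signal was 507.7 to 790.4 in Ebi3_KO and 505.4 to 552.9 in DKO, against 555.3 to 882.8 in WT and 424.3 to 683.4 in Il10_KO.

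The sets of low probe sets differed between arrays. The count of member probe sets at or under -1, of 21, was 6, 7 and 2 in Ebi3_KO minus WT of batches 1, 2 and 3, and 6, 5 and 6 in DKO minus Il10_KO. The lone low count belonged to Ebi3_KO replicate 3, where 1440695_at of Zfp40 (-2.17) and the dim 1454583_at of Zfp54 (-1.45) were the 2 probe sets. Over all tested probe sets the same counts were 3.97%, 5.88% and 4.85%, and 2.9%, 4.17% and 4.06%. Without Ebi3_KO replicate 3, 7 member probe sets were lower in all 5 remaining pairs (3.89% of all tested) and 4 lay below all 6 arrays with Ebi3 (0.192%), those being both of Zfp52, 1437911_at of Zfp944 and 1437128_a_at of Zfp945. The number at or under -1 stayed at 6.

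**Figure D3:**
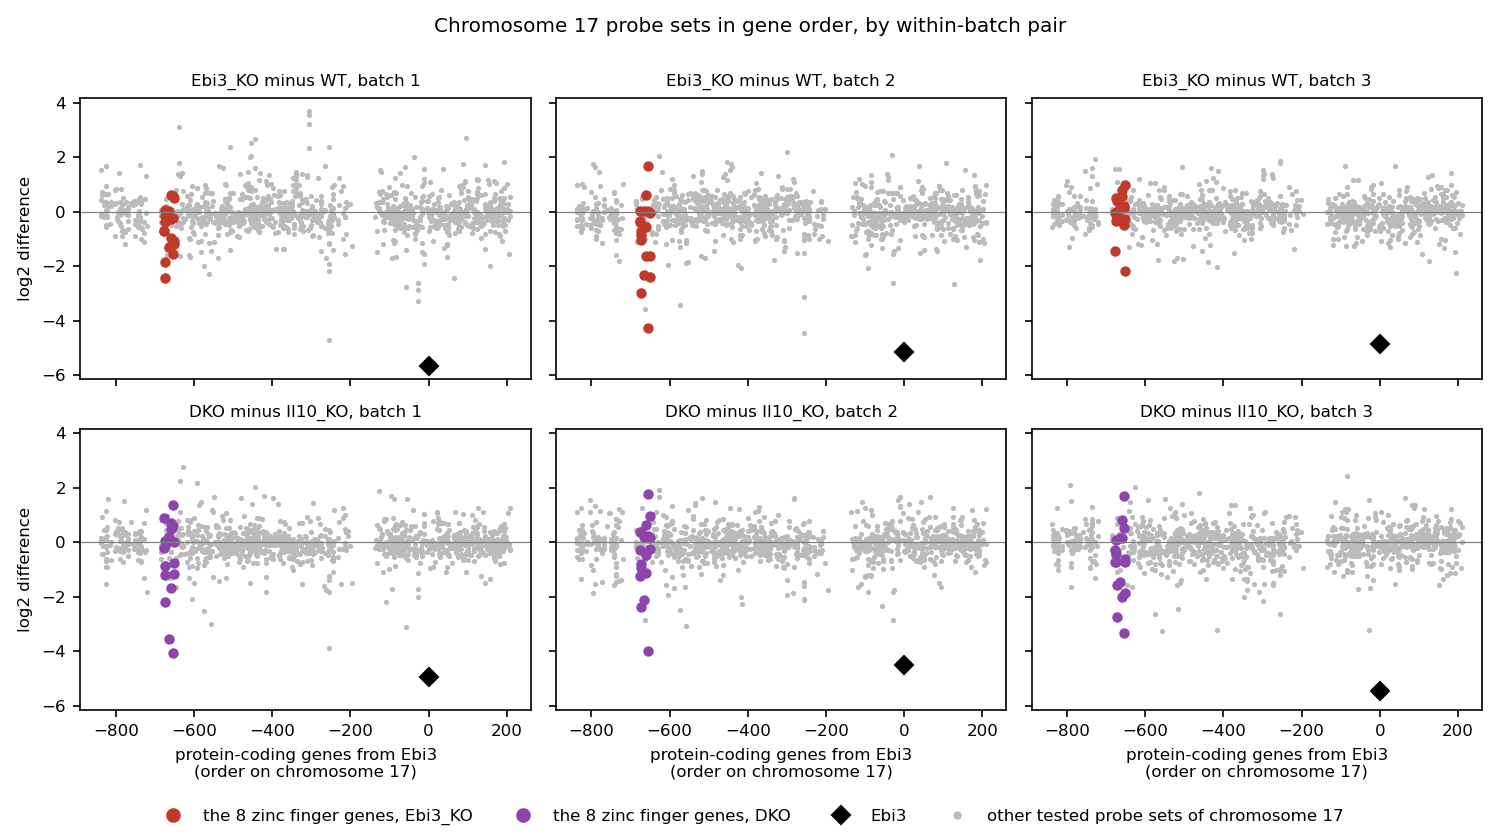
Log2 differences along chromosome 17, 1 panel per within-batch pair, with the number of protein-coding genes from Ebi3 on the x axis and the difference of log2(signal + 20) on the y axis. Members are coloured, Ebi3 is a black diamond and other probe sets are grey; members at or under -1 number 6, 7 and 2 in the Ebi3_KO panels and 6, 5 and 6 in the DKO panels.

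The same stretch held other low probe sets. On 1 probe set per gene, 8 of the 10 tested genes that lie between members were below 0 by Ebi3 genotype (median -0.24), against 7289 of 13899 of all tested genes (median -0.01). The lowest was Zfp994, which averaged -1.70, with pairs of -0.94, -3.59 and 0.34 in Ebi3_KO minus WT and -1.29, -2.86 and -1.89 in DKO minus Il10_KO, so it too was high on Ebi3_KO replicate 3. Zfp948 averaged -0.86 and Zfp943 -0.49. Above 0 were Zfp983 at 0.42, with every pair above 0 (0.001 to 0.884), and Zfp995 at 0.04. None of the 10 passed limma's test, which 0.0032% of all tested probe sets did, namely Ebi3 itself.

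Among the 32 other tested Zfp genes of chromosome 17, which include some of those between members, 20 were below 0 (median -0.09), with Zfp994 (-1.70), Zfp948 (-0.86) and Zfp811 (0.70) the largest in size. The 255 tested Zfp genes of other chromosomes had 154 below 0 (median -0.06), 0 at or under -1, and Zfp626 (-0.83), Zfp354c (-0.78) and Zfp583 (-0.73) as the largest. Next to Ebi3 itself, Zfp119b averaged -0.27, Zfp959 0.11 and Zfp119a 0.12. On the brightest probe set per gene, the 1 Zfp gene at or under -1 that is not a member, Zfp994, thus lies between members. Counted the same way, 6 of the 8 members were below 0 (median -0.45), 2 were at or under -1 and 1 at or over 1. The 6 probe sets of 5 members given above came from all probe sets, so they are not set against these lists. In both lists of Zfp genes 0 genes passed limma's test. Low values were not confined to Zfp genes, as 8 of 645 other tested genes of chromosome 17, Ebi3 left out, were at or under -1. Of 34 such probe sets with 1 gene symbol, 23 lay on chromosome 17, members and Ebi3 included. Outside the stretch, Eme2 had pairs of -1.983, -3.433 and -0.147 in Ebi3_KO minus WT. In DKO minus Il10_KO its pairs were -2.51, -2.473 and -2.625.

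The cofactors of KRAB proteins showed small values. Of 22 tested corepressor genes 15 were below 0 with a median of -0.02, and 0 passed limma's test. The largest in size were Cbx3 (-0.39), which encodes an HP1 protein, and Mta2 (-0.22) and Mbd3 (-0.17), both of the NuRD complex. Trim28 averaged 0.04.

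The Il10 genotype, which the choice of members did not use, gave each member a test. The average difference by Il10 genotype (Il10_KO minus WT and DKO minus Ebi3_KO) passed limma's adjusted threshold in 0 of the 18 tested member probe sets, where 0.0128% of all tested probe sets passed, and 3 of the 18 had an unadjusted p under 0.05, against 694 of all 31235 tested. With batch in the model it again passed in 0 of 18, where 0.064% of all tested did, and 5 of the 18 had an unadjusted p under 0.05, against 2691 of all tested. It was below 0 in 15 of 18, against 14455 of all 31235 tested, with a median of -0.28 against 0.02 over all tested. Several of the 18 are probe sets of the same gene, so they are not separate counts. The 3 with an unadjusted p under 0.05 without batch in the model were Zfp53 1449414_at at -0.46 ± 0.16 (SE, limma adjusted p = 0.99988; adjusted p = 0.4022 with batch in the model), Zfp52 1426472_at at -0.83 ± 0.31 and Zfp54 1454583_at at -0.75 ± 0.33. The largest in size was Zfp945 1437128_a_at at -1.18 ± 0.57 (limma adjusted p = 0.99988), which was -0.88 without Ebi3_KO replicate 3 and -1.83 without Ebi3_KO replicate 2. Without Ebi3_KO replicate 3 that of Zfp53 1449414_at was -0.35. With batch in the model, the 5 with an unadjusted p under 0.05 were those 3 together with Zfp945 1437128_a_at and Zfp942 1454402_at. All 5 except Zfp53 1449414_at passed the filter only through arrays that keep Ebi3. Their number beside that over all tested probe sets is therefore not read as a result.

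**Figure D4:**
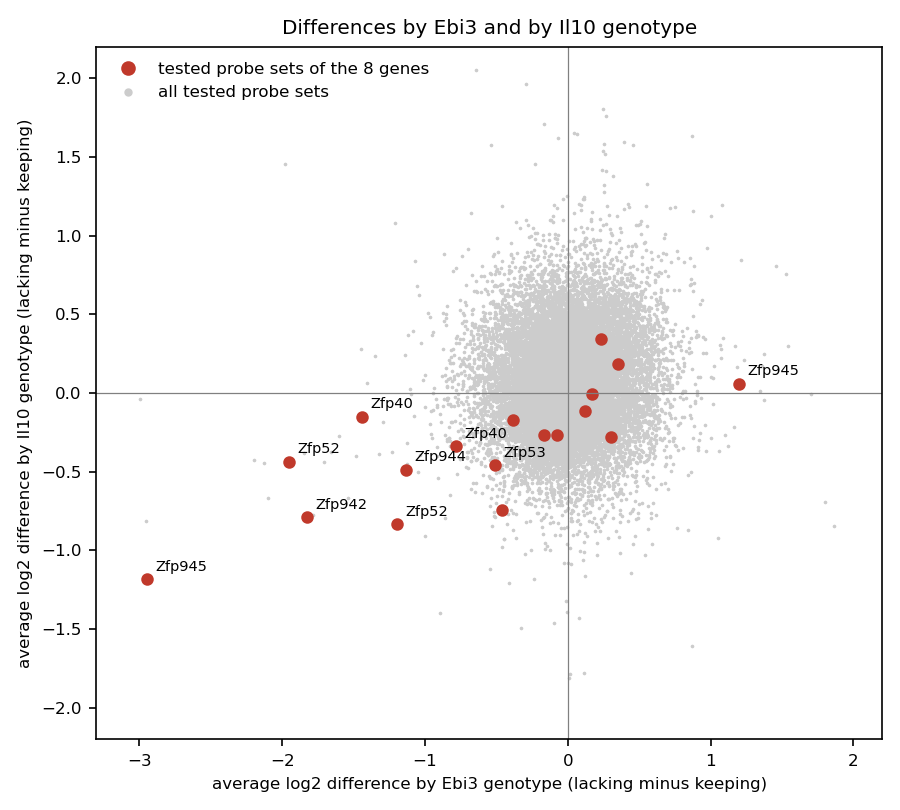
Average log2 difference by Ebi3 genotype (x axis) against that by Il10 genotype (y axis), each as arrays lacking the gene minus arrays keeping it in log2(signal + 20), for the tested probe sets of the 8 genes (red) and all tested probe sets (grey), with 4 points outside the axes. Zfp945 1437128_a_at lies at the lower left (-2.94 and -1.18), and the DKO arrays count as lacking on both axes.

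Whether the Ebi3 difference depended on Il10 was asked by the interaction, DKO minus Il10_KO minus Ebi3_KO plus WT. It passed limma's test in 0 members, as in all tested probe sets, where 400 had an unadjusted p under 0.05, and no member had one. It was below 0 in 9 of 18, against 14281 of all 31235 tested. Zfp945 1437128_a_at had the largest size, at -1.70 ± 1.14 (SE), and Zfp942 1454402_at stood at -1.11 ± 0.74, both lower in DKO relative to Il10_KO than in Ebi3_KO relative to WT. Both passed the filter only through arrays that keep Ebi3, and in DKO they read 12.1 to 20.9 and 1.9 to 25.3. The interaction of Zfp945 was -1.09 without Ebi3_KO replicate 3, -1.02 without Ebi3_KO replicate 1 and -2.99 without Ebi3_KO replicate 2. That of Zfp942 was -0.71 without WT replicate 3 and -1.60 without Ebi3_KO replicate 2. For Zfp53 1449414_at the interaction was -0.56 ± 0.31 (SE). With batch in the model the SE was 0.87 for Zfp945, 0.66 for Zfp942 and 0.26 for Zfp53 1449414_at. Even so, no member had an unadjusted p under 0.05, where 1232 of all tested did. The nearest was Zfp53 1449414_at (limma unadjusted p = 0.052). The smallest adjusted p was 0.99992 by limma, and 0.99974 with batch in the model. For Zfp945 1437128_a_at, Zfp942 1454402_at and Zfp53 1449414_at, DKO minus Il10_KO was thus not distinguished from Ebi3_KO minus WT, with 3 arrays each. The interaction compares mean differences, so it neither sets DKO against Ebi3_KO directly nor asks how uniform the arrays were.

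The genes whose signal was most like that of a member over the 12 arrays, after batch means were removed and with the brightest tested probe set of each member, differed between the members. For Zfp52 these were Eme2 of chromosome 17 (r = 0.99), a subunit of a DNA endonuclease, and Zfp944 (0.97), and 15 of its 20 most similar genes lay on chromosome 17, which holds 4.94% of tested genes. For Zfp944 they were Zfp52 (0.97) and Eme2 (0.95), with 14 of 20 on the chromosome. Zfp53 had 8 of 20 there, led by Thoc1 (0.93) and Wdr66 (0.93) of other chromosomes.

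The remaining members had few or none. Zfp945, on its probe set 1437127_at, was most like Ptprs of chromosome 17 (0.96) and Acp7 (0.95), with 4 of 20 on the chromosome. Zfp40 was most like Tlr1 (0.97) and Pacsin1 of chromosome 17 (0.94), and Zfp54 most like Crbn (0.96) and Prss44 (0.92), each with 3 of 20. Zfp51, nearest to Txndc17 (0.91) and Iws1 (0.91), and Zfp942 on its level probe set, nearest to Nup188 (0.97) and 6530402F18Rik (0.96), had 0 of 20. All these correlations share the 12 arrays and their genotypes and are descriptions.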

How the data were processed

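Total RNA was labelled by the Affymetrix two-cycle protocol, per the labels' protocols. Per the submitters' processing notes, MAS5 and Partek 6.4 were used, and no genome build is given in the sources used here. The deposited table is on a natural log scale with 20 added to each MAS5 signal first, as read from the values: undone, signals below 200 are multiples of 0.1 (within 0.000178), and the trimmed mean (2% at each end) is 500 on all 12 arrays. They were turned into log2(signal + 20) with no further normalization, so changes at low signal are understated. Median signals were 59.3 to 89.1, and the number of arrays limits the precision.

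Of 45101 probe sets, 64 controls were left out and 31235 reached the array's 40th percentile (signals of 35.5 to 52.8) on at least 3 arrays. The 4 genotypes were fitted with limma 3.58.1 in R 4.3.3 (lmFit, eBayes with trend, 8 residual degrees of freedom), with Benjamini-Hochberg adjustment over all tested probe sets and a threshold of 0.05; the fit was tested on simulated data. Batch as a factor, offset 100, quantile normalization, no filter, no trend and each array left out were alternatives. Arrays of the same number, which the labels name as a batch, correlated at 0.325 to 0.664 after genotype means were removed (18 pairs), against -0.531 to -0.0204 for different numbers (36 pairs), so the numbers pair the arrays.

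Genes were named from the platform annotation, with 1 symbol for 34945 probe sets (34741 matched to GRCm38.p6 by gene identifier), several for 932 and none for 9160. For lists and likeness the brightest tested probe set stood for a gene. Named were all members, the targeted genes, the 3 largest differences of a list in which none passed, and the 2 most correlated genes per member. The genes between members that were above 0 and the Zfp genes next to Ebi3 were also named. The members and lists were chosen with earlier results of these data known. The sensitivity to Ebi3_KO replicate 3 was added after seeing the data.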

Additional observations from a re-analysis of the deposited data

Results flagged for a closer look

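Zfp53 probe set 1445201_at went opposite ways in the 2 comparisons by Ebi3 genotype. All 3 pairs of DKO minus Il10_KO were above 0 (0.07, 0.38 and 0.09), while all 3 pairs of Ebi3_KO minus WT were below 0 (-0.17, -1.02 and -0.35). The interaction was 0.69 ± 1.01 (SE) on the log2 scale, where the SE was 0.45 with batch in the model. It did not pass limma's test either way (adjusted p = 0.99992, and adjusted p = 0.99974 with batch in the model). The signal of this probe set also differed between batches, at 800.6 to 905.6 in batch 1 and 141.1 to 408.7 in batch 3. The groups of 3 arrays were too small to look for single outlying arrays by a rule.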

How the results depend on the processing

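With the replicate block, which pairs arrays by batch, limma called 20 probe sets by Il10 genotype (4 without it) and 2 by Ebi3 genotype (1 without it), and it changed no call of a member. Leaving out each array in turn gave 1 to 12 calls by Ebi3 genotype and 2 to 3 by Il10 genotype. It gave 1 to 3 for Ebi3_KO against WT and 1 to 3 for DKO against Il10_KO. The 12 came without Ebi3_KO replicate 3. Of these, 7 lay on chromosome 17, Ebi3 and 1 member probe set (Zfp52 1426471_at) included, and the rest had no gene name and no known chromosome. Nothing is read from the call of the member, since members were picked on this contrast. With the replicate block and 1 array left out (chosen after seeing the data) the calls were 1 to 32 by Ebi3 genotype and 12 to 33 by Il10 genotype. The interaction had 0 calls in these settings except 1 call with the replicate block and without WT replicate 3. Of the member values by Ebi3 genotype, 0 changed sign under the 5 settings that keep all 12 arrays, and 2 probe sets did with 1 array left out, Zfp51 (0.01 without WT replicate 1) and Zfp53 1445201_at (0.23 without DKO replicate 3). An offset of 100 shrank dim probe sets and left 2 at or under -1, Zfp945 1437128_a_at (-1.88) and Zfp52 1426471_at (-1.79), with Zfp942 1454402_at at -0.97. Tested values that changed sign were all far from the threshold. The Zfp51 interaction was -0.00444 with quantile normalization, and that of Zfp52 1426472_at was 0.17 with offset 100. With 1 array left out, the Il10 difference spanned -0.37 to 0.22 for Zfp40 1440695_at, -0.86 to 0.036 for Zfp52 1426471_at, -0.51 to 0.13 for Zfp53 1445201_at, -0.17 to 0.15 for Zfp944 1425085_at, -0.024 to 0.32 for Zfp944 1437881_at, -0.012 to 0.51 for the shared probe set and -0.18 to 0.35 for Zfp945 1437127_at. The interaction spanned -0.087 to 0.78 for Zfp40 1435984_at, -0.18 to 0.16 for Zfp51, -0.54 to 0.25 for Zfp52 1426472_at, -0.056 to 1.48 for Zfp53 1445201_at, -0.35 to 0.28 for Zfp54 1419239_at, -0.52 to 0.10 for Zfp944 1425085_at and -0.025 to 1.02 for the shared probe set. The cause was not tested. Signals near the offset of 20 carry little information, which limits the dim probe sets of Zfp40, Zfp54 and Zfp942. It also limits 2 others where they are low, Zfp945 1437128_a_at (12.1 to 20.9 in DKO) and Zfp52 1426472_at (8.9 to 34.6 in DKO). With an offset of 100, Zfp52 1426472_at went from -1.20 to -0.63 by Ebi3 genotype.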
